A study of Homo sapiens with 15 samples.

Results

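The 9 laminin chain genes LAMA1, LAMA2, LAMA3, LAMA4, LAMA5, LAMB1, LAMB2, LAMB3 and LAMC1 were followed in bulk RNA sequencing of the established human embryonic stem cell line H1 during differentiation into committed cardiac progenitors. The rule takes each by its gene name, as the row whose Ensembl identifier carries that symbol in GENCODE, 9 of 48777 genes listed. Samples were taken on days 0, 4, 9, 11 and 20, with 3 libraries labelled as biological replicates on each day and 15 in all. Day 0 cells were undifferentiated and grown in Nutristem medium, and differentiation used CHIR99021, which activates Wnt signalling, and at a later step IWP2, which blocks it. By either protocol note the day 4 cells had not yet received IWP2. The labels place every sample on plates coated with LN-521 + LN-221. The deposited sample table has only LN-521 for day 0 and both laminins for the later days, so differentiation day and substrate cannot be told apart in any comparison with day 0 if that table is right. The protocol notes also disagree on the day on which CHIR99021 was added, and the methods list day 7 where the labels give day 9. All cells came from this 1 line, so the replicates are cultures and not donors.

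Laminins are large proteins of the basement membrane, the sheet of extracellular matrix on which many cells sit. Each is built from 1 α, 1 β and 1 γ chain, and is named after the chains it holds. LN-521 combines the products of LAMA5, LAMB2 and LAMC1, and LN-221 those of LAMA2, LAMB2 and LAMC1. The α chain carries the main binding sites for integrins and dystroglycan on the cell surface. Embryonic stem cells are known for making laminins with the α5 and α1 chains, and heart and skeletal muscle for α2 and α4. The libraries measured transcripts, so the values give what RNA the cells held and not the coated protein.

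The positions are given on GRCh38 in GENCODE, and the values count reads on all exons of a gene. LAMA2 (ENSG00000196569) lies on the plus strand at chr6:128883138-129516566, and LAMA4 (ENSG00000112769) on the minus strand at chr6:112107931-112254939. LAMA1 (ENSG00000101680, chr18:6941742-7117797) and LAMA5 (ENSG00000130702, chr20:62307955-62367312) are both on the minus strand. LAMA3 (ENSG00000053747, chr18:23689453-23956222) and LAMC1 (ENSG00000135862, chr1:183023420-183145592) are on the plus strand. LAMB1 (ENSG00000091136, chr7:107923799-108003213), LAMB2 (ENSG00000172037, chr3:49121114-49133118) and LAMB3 (ENSG00000196878, chr1:209614870-209652425) are on the minus strand. Exons of LAMA5 overlap those of ADRM1 on the opposite strand over 244 bases, and exons of LAMB1 overlap those of DLD over 300 bases. The kit was stranded, but no source says whether counting used the strand, so the reads of these overlaps could not be assigned to one gene.

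Promoter sequences from RefSeq (GRCh38.p14) matched 8 of the 9 chains, all but LAMA1. Those of LAMA2 and LAMA4, the α chains that were higher on day 20 than on day 0, are shown beside those of LAMA5 and LAMC1, which were high on every day. Each is the stretch before the transcription start, printed 5′ to 3′ on the strand of the gene, at chr6:128882888-128883137 (plus) for LAMA2, chr6:112254723-112254785 (minus) for LAMA4, chr20:62367313-62367562 (minus) for LAMA5 and chr1:183023170-183023419 (plus) for LAMC1. Of the 250 bases before the LAMA4 start, 187 are exons of other LAMA4 transcripts, and only a stretch of 63 bases outside them is printed. Capitals mark GATAA, the core bound by GATA factors, on either strand.
LAMA2: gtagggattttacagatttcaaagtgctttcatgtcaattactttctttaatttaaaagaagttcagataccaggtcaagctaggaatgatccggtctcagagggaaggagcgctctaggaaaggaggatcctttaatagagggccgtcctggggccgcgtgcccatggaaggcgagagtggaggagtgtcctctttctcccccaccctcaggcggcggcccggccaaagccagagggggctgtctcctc
LAMA4: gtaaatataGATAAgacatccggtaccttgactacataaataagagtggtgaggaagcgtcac
LAMA5: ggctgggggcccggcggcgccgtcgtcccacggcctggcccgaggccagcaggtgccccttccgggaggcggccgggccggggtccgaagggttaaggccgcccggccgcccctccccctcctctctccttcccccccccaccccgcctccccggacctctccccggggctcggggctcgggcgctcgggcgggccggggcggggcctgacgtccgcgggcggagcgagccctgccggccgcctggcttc
LAMC1: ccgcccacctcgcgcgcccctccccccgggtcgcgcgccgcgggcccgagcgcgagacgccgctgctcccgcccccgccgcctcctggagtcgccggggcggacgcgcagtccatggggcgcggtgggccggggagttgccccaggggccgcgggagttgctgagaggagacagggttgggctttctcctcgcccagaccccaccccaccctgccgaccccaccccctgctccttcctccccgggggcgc

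GATAA was found once in the 250 bases of LAMA4 and not in those of the other 7 chains, while 20.97% of 27305 promoters hold it in the same window. The dinucleotide CG occurred 32 times in the LAMA5 and 32 times in the LAMC1 window, 9 times in that of LAMA2 and 5 times in that of LAMA4, against a median of 11 over all promoters. In the windows not printed it occurred 28 times for LAMB1, 12 for LAMB2, 9 for LAMA3 and 8 for LAMB3. The GC box GGGCGG, present in 42.31% of promoters, occurred 5 times before LAMA5, 3 times before LAMC1 and not before LAMA2 or LAMA4. It occurred 4 times before LAMB1 and 1 time each before LAMA3, LAMB2 and LAMB3. These matches describe letters only, and no binding was measured.

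The libraries held 11990302 to 33469703 counted reads (median 22867831). Levels are given as deposited TPM, which is scaled per gene length and allows chains to be compared with each other. A single gene with an implied length of 57 bases took 20.0% of all TPM in day 0 library 3 and 17.0% in day 9 plate 2, which lowers the TPM of every other gene there. One library stood apart, plate 2_3 of day 20. It had an RNA integrity number of 6.1, where the others had 8.8 to 10, and counts in 48230 genes. In it, 175 of 175 silent genes (autosomal protein-coding genes of at least 2000 bases with at most 2 reads in all over the 12 libraries before day 20) had reads, at a median of 11.0 reads per kilobase. In plate 6 of day 20, 133 of the 175 had reads, at a median of 0.679 per kilobase. At the rate of plate 2_3 such reads would make up 44.8% of the LAMA3 count, 37.7% of the LAMB3 count, 10.7% of the LAMA1 count and 6.33% of the LAMA5 count in this library, and at most 1.41% for the other chains. Markers fixed for this work set day 0 apart from day 20. The 5 pluripotency genes summed to 2532 to 3922 TPM on day 0 and 7.37 to 34.9 TPM on day 20. The 5 cardiomyocyte genes summed to 9.39 to 12.2 and 3583 to 15243 TPM. They did not set all days apart. The pluripotency sums of day 4 (2993 to 3720 TPM) lay within the range of day 0. The cardiomyocyte sums of day 11 (3600 to 14868 TPM) lay within that of day 20.

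**Figure D1:**
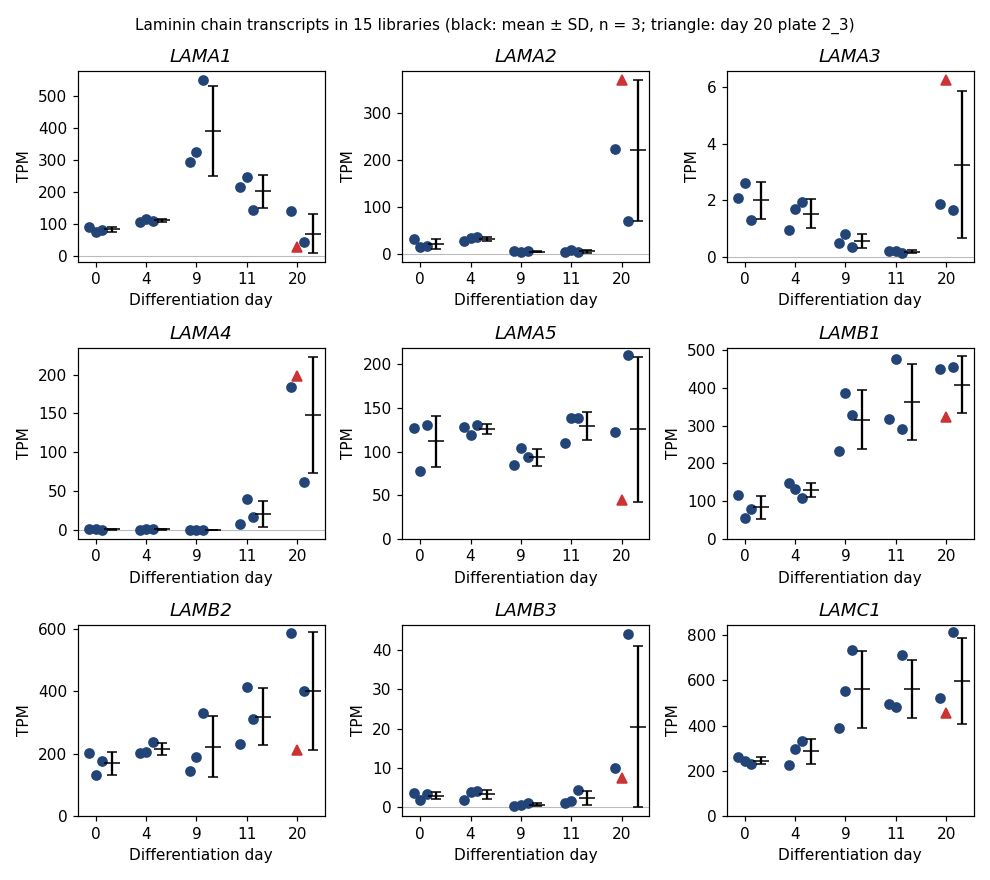
TPM (y axis) of each laminin chain against differentiation day (x axis). Points are libraries, the triangle is day 20 plate 2_3 and black bars are the mean ± SD (n = 3). LAMA2 and LAMA4 are highest on day 20, LAMA1 on day 9, and LAMB1 and LAMC1 step up between days 4 and 9.

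The γ1 chain had the highest mean level of the 9 chains on every day. LAMC1, which encodes the γ chain shared by most laminins, had 259, 245 and 231 TPM in the libraries of day 0 and 226, 297 and 333 TPM on day 4. On day 9 it had 390, 555 and 735 TPM, on day 11 494, 482 and 711 TPM, and on day 20 524, 454 and 815 TPM. All libraries from day 9 onwards lay above all those of days 0 and 4. The rise from day 4 to day 9 was 1.99-fold (log2 fold change 0.99, SE 0.24, adjusted p = 0.00949 by edgeR), with an adjusted p of 0.0522 when all 15 libraries were in 1 fit. The levels of days 9, 11 and 20 did not differ beyond their spread.

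Of the α chains, LAMA5 was the steadiest. It encodes the α chain of LN-521 and had 127, 77.9 and 131 TPM on day 0, 129, 119 and 130 TPM on day 4, and 84.1, 104 and 93.6 TPM on day 9. On day 11 it had 110, 139 and 139 TPM. Day 20 spread widest, with 122, 44.3 and 210 TPM in plates 2, 2_3 and 6. None of the 4 neighbours in the order of its day means differed. The fall from day 4 to day 9, by 0.41 on the log2 scale (SE 0.12), passed the threshold by edgeR (adjusted p = 0.0179), but not when day 4 plate 5 (0.0607) or day 9 plate 2 (0.0853) was left out, with the sequencing lane as a block (0.0640) or with all 15 libraries in 1 fit (0.493).

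LAMA1, the α chain of the first basement membranes of the embryo, peaked on day 9. It had 91.1, 75.0 and 80.1 TPM on day 0, 106, 116 and 110 TPM on day 4, and 294, 327 and 553 TPM on day 9. On day 11 it had 214, 246 and 144 TPM, and on day 20 139, 26.3 and 42.3 TPM. The libraries of day 9 were above those of every other day. LAMA1 rose 3.59-fold from day 4 to day 9 (log2 fold change 1.84, SE 0.25, adjusted p = 0.000557 by edgeR). The lower level of day 11 (log2 fold change −1.02, SE 0.31) did not pass the threshold against day 9 by edgeR (adjusted p = 0.140) but passed by DESeq2 (0.0226), and that of day 20 did not against day 11 (log2 fold change −1.58, SE 0.67, adjusted p = 0.286).

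LAMA2, the α chain of LN-221 and the main one of muscle basement membranes, fell and then rose. It had 32.2, 14.0 and 16.2 TPM on day 0, 26.7, 32.9 and 34.8 TPM on day 4, and 4.81, 2.88 and 4.91 TPM on day 9. On day 11 it had 2.99, 8.61 and 3.02 TPM, and on day 20 222, 369 and 68.9 TPM. Every library of day 20 was above every earlier one, and those of days 9 and 11 overlapped and were all below those of days 0 and 4. LAMA2 fell to 0.137 of its day 4 level by day 9 (log2 fold change −2.87, SE 0.25, adjusted p = 7.63e-05 by edgeR). It was 39.0-fold higher on day 20 than on day 11 (log2 fold change 5.28, SE 0.71, adjusted p = 0.0212) and 8.49-fold higher than on day 0 (3.09, SE 0.55, adjusted p = 0.00533). Against day 11 the call was lost when any 1 of the 3 libraries of day 11 was left out (adjusted p 0.0818 to 0.145, with log2 fold changes of 5.00 to 5.91). Each of those fits called only 0 or 1 of all genes.

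LAMA4, the α chain of laminins in blood vessel walls and heart muscle, was the chain with the widest range. Its counts on day 9 were 16, 33 and 6 reads, so its low levels rest on few reads. It had 0.90, 1.05 and 0.53 TPM on day 0, 0.76, 1.80 and 1.13 TPM on day 4, and 0.28, 0.52 and 0.07 TPM on day 9. It then had 7.54, 39.9 and 16.5 TPM on day 11 and 184, 198 and 62.5 TPM on day 20. Each library of day 11 was above every earlier one, and each of day 20 above every library of day 11. The change from day 9 to day 11 was 73.3-fold (log2 fold change 6.20, SE 0.85, adjusted p = 0.0208 by edgeR). It did not pass when day 9 plate 2 (0.127) or the day 9 library without a plate number (0.0913) was left out, or without the filter on low counts (0.112). Leaving out those libraries left 0 and 37 of all genes called in this step. LAMA4 was 147-fold higher on day 20 than on day 0 (log2 fold change 7.20, SE 0.53, adjusted p = 0.000230), and this call held in all 10 alternatives (adjusted p of at most 0.00549). The step from day 11 to day 20 (log2 fold change 2.63, SE 0.65) had an adjusted p of 0.0925.

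LAMA3 and LAMB3, chains of the laminin of skin and other epithelia, had low levels before day 20. LAMA3 had 1.32 to 2.61 TPM on day 0, 0.96 to 1.93 TPM on day 4, 0.34 to 0.83 TPM on day 9 and 0.14 to 0.21 TPM on day 11. On day 20 it had 1.88, 6.26 and 1.64 TPM. It fell from day 4 to day 9 (log2 fold change −1.48, SE 0.36, adjusted p = 0.00896 by edgeR) and rose from day 11 to day 20 (3.85, SE 0.56, adjusted p = 0.0256), a call that was lost without any 1 of the 3 day 11 libraries (0.111 to 0.174) and with the lane as a block (0.0588). Without 1 of the day 11 libraries, only 0 or 1 of all genes passed in that step. The highest LAMA3 level was in plate 2_3, the library with reads in silent genes, where its count was 332. LAMB3 had 3.60, 1.97 and 3.30 TPM on day 0 and 0.35, 0.59 and 1.07 TPM on day 9. On day 20 it had 9.93, 7.45 and 44.1 TPM in plates 2, 2_3 and 6. It fell from day 4 to day 9 (−2.23, SE 0.44, adjusted p = 0.00359), and was higher on day 20 than on day 0 (2.63, SE 0.77, adjusted p = 0.0357). That last call was lost without day 20 plate 6 (log2 fold change 1.20, adjusted p = 0.121) or without any 1 of the day 0 libraries (0.0972 to 0.149).

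The 2 abundant β chains took different courses. LAMB1, the β chain of embryonic laminins, had 116, 54.6 and 78.9 TPM on day 0, 147, 132 and 108 TPM on day 4, and 232, 386 and 328 TPM on day 9. On day 11 it had 318, 477 and 290 TPM, and on day 20 449, 322 and 455 TPM. It rose 2.45-fold from day 4 to day 9 (log2 fold change 1.29, SE 0.19, adjusted p = 0.000691 by edgeR), with no overlap between these days. On day 20 it was 4.25-fold higher than on day 0 (2.09, SE 0.41, adjusted p = 0.00754), which did not pass without day 0 library 3 (0.0590). LAMB2, the β chain of both coated laminins, had 202, 130 and 175 TPM on day 0, 201, 205 and 236 TPM on day 4, 145, 190 and 331 TPM on day 9, 229, 412 and 312 TPM on day 11, and 588, 212 and 401 TPM on day 20. Neighbouring days overlapped in LAMB2, and none of its 4 neighbours in the order of day means differed. LAMB2 was higher in every library of day 11 than on day 0 (log2 fold change 0.79, SE 0.27, adjusted p = 0.0431 by edgeR). Between those days 40.1% of all genes tested passed in either direction. Day 20 against day 0 gave a log2 fold change of 1.05 (SE 0.48, adjusted p = 0.144), and 1.42 (0.00805) without plate 2_3.

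Over the whole set of chains, the orders of the day means held 8 neighbouring pairs of days, of 36, that differed by edgeR. For LAMA1 these were days 11 and 4 (adjusted p = 0.00964), for LAMA2 days 20 and 4 (0.00915) and days 0 and 11 (0.00652), for LAMA4 days 11 and 4 (0.00254) and for LAMB3 days 20 and 4 (0.0478). For LAMA3, LAMB1 and LAMC1 they were days 4 and 9. The share of all genes tested that passed differed widely between the comparisons looked up, and those of consecutive days are given below with each step. In either direction, 42.0% passed between days 0 and 9, 40.1% between days 0 and 11, 46.9% between days 4 and 11 and 30.8% between days 4 and 20. Between days 9 and 20 it was 10.0%, and LAMA2, LAMA3, LAMA4 and LAMB3 were higher there.

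Day 4 was set against day 0 to ask whether the chains changed before the later steps of differentiation. From day 0 to day 4, 0 of the 9 chains passed the threshold by edgeR (0% of the 20964 genes tested were called higher and 0% lower), 1 chain (LAMA1, higher in every library) and 741 genes had an unadjusted p under 0.05, and DESeq2 called 0 chains and 0 genes. Without the filter on low counts 64 genes and 0 chains were called. The log2 fold changes of the chains lay between −0.45 for LAMA3 and 0.57 for LAMB1, with a median of 0.26 beside −0.01 over all genes.

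Day 9 against day 4 was the step with the most calls. LAMA1, LAMB1 and LAMC1 rose, LAMA2, LAMA3, LAMA4, LAMA5 and LAMB3 fell, and LAMB2 had a log2 fold change of 0.08 (SE 0.29). These were 3 chains higher, where 24.3% of all 21252 genes tested were called higher, and 5 lower, where 24.7% were called lower. The median of the chains was −0.41, beside 0.01 over all genes. Each of the 3 sequencing lanes held 1 library of either day, and within the lanes the 8 called chains moved the same way in 3 of 3, although LAMA5 did not pass with the lane as a block (0.0640). The 3 chains that rose are the α1, β1 and γ1 chains of laminin-111. LAMA4 did not pass without day 4 plate 2 (0.0733), without day 9 plate 2 (0.0573) or without the filter on low counts (0.0508).

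**Figure D2:**
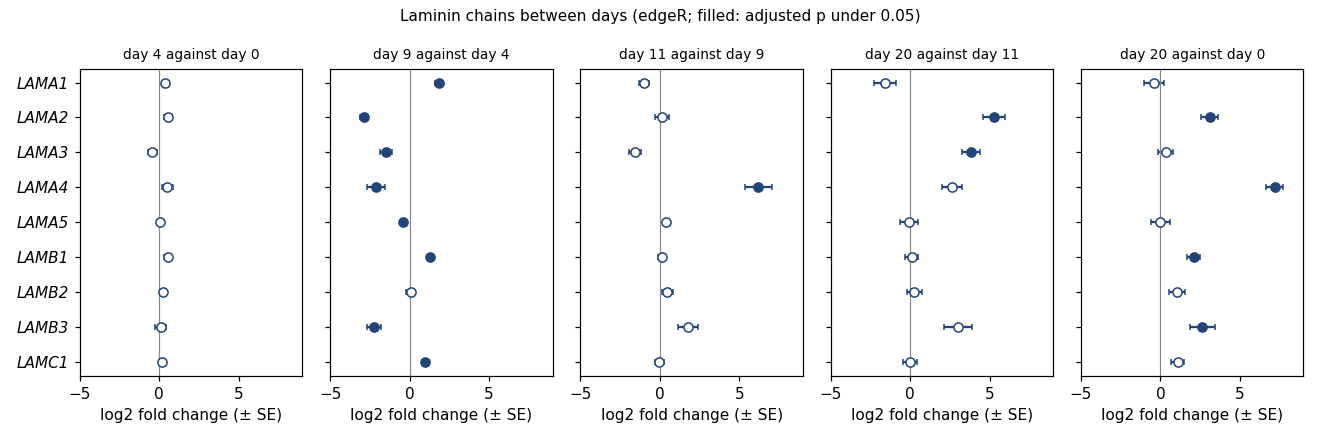
Log2 fold change of the later over the earlier day (x axis, ± SE from edgeR, 3 libraries a day) for each chain (y axis). Filled points passed an adjusted p of 0.05: 8 chains from day 4 to day 9, and LAMA4 alone from day 9 to day 11.

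Day 11, the stage of the committed cardiac progenitors, was set against day 9. LAMA4 alone rose and 0 chains fell, where 1.39% of 20679 genes were called higher and 1.00% lower. LAMA4 was higher in 3 of 3 lanes. LAMA3 and LAMA1 were lower in every library of day 11 without passing by edgeR (adjusted p = 0.0960 and 0.140), and both passed by DESeq2 (0.0266 and 0.0226). LAMA5 and LAMB3 were higher in every library without passing (0.245 and 0.199). The median over the chains was 0.15 and that over all genes 0.00.

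From day 11 to day 20, LAMA2 and LAMA3 rose and 0 chains fell, where 1.12% of 21398 genes were called higher and 0.435% lower. LAMA4 and LAMB3 were also higher in every library of day 20 and in 3 of 3 lanes without passing by edgeR (adjusted p = 0.0925 and 0.133), and both passed by DESeq2 (0.00240 and 0.0112) and with all 15 libraries in 1 fit (0.0123 and 0.0176). The median over the chains was 0.27, beside 0.07 over all genes. Over the whole course, LAMA2, LAMA4, LAMB1 and LAMB3 were higher on day 20 than on day 0 and 0 chains were lower, where 16.1% of 21988 genes were called higher and 11.3% lower. The median was 1.08 for the chains and 0.11 for all genes. LAMC1 was 2.11-fold higher with no overlap, but with an adjusted p of 0.0757, and 0.00692 without plate 2_3. LAMA5 had a log2 fold change of −0.01 (SE 0.61) and LAMA1 one of −0.42 (SE 0.62). Without day 20 plate 2, LAMA1 passed as lower (−1.58, adjusted p = 0.0302).

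Summed over the 9 chains, the mean level went from 717 TPM ± 116 (SD, n = 3) on day 0 to 903 ± 60.2 on day 4, 1588 ± 449 on day 9, 1601 ± 215 on day 11 and 1994 ± 315 on day 20. Which α chain led changed with the day. LAMA5 made up 51.0% ± 5.80 (SD, n = 3) of the summed α chain TPM on day 0 and 46.5% ± 2.54 on day 4, and was first in all 6 of those libraries, followed by LAMA1. LAMA1 was first in all 6 libraries of days 9 and 11, with 78.9% ± 5.20 and 56.1% ± 8.12, and LAMA5 second with 20.0% ± 5.02 and 36.9% ± 7.74. On day 20 the libraries did not share an order.

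In plates 2 and 2_3 of day 20, LAMA2 was first and LAMA4 second, and in plate 6 LAMA5 was first and LAMA2 second. The day 20 means were 36.1% ± 19.9 for LAMA2, 26.6% ± 24.9 for LAMA5, 24.8% ± 7.65 for LAMA4 and 11.9% ± 8.39 for LAMA1. LAMA2's lead was lost with another gene length, which may not match the counts. The TPM imply 10094 bases for LAMA2, while all its GENCODE exons joined span 26419 bases. Apart from LAMB1, the other chains had closer lengths. These were equal for LAMA5 (14291 bases) and LAMB2 (6865 bases), and 13522 and 14488 bases for LAMA3. Reads were counted on an Ensembl annotation, so the joined exons of LAMA2 may reach beyond those counted. Its share by exon length would then be too low. With the exon lengths LAMA4 was first in plates 2 and 2_3 of day 20 and LAMA5 in plate 6. LAMA2 was then second in plate 2_3 and below LAMA1, LAMA4 and LAMA5 in plates 2 and 6. The day 20 means were then 32.8% for LAMA4, 31.9% for LAMA5, 19.4% for LAMA2 and 15.1% for LAMA1, while the first α chain of the other 12 libraries was unaltered. In TPM, LAMA4 had been 0.401% ± 0.195 of the α chains on day 0 and 0.0680% ± 0.0548 on day 9. Among the β chains, LAMB2 held 66.8% ± 3.50 on day 0 and 61.8% ± 5.35 on day 4, and LAMB1 59.4% ± 8.82 on day 9, 53.1% ± 5.09 on day 11 and 51.0% ± 8.30 on day 20. This order also turns with the gene length, which the TPM imply as 8140 bases for LAMB1 and its joined exons give as 18592 bases. Here too the joined exons may reach beyond those counted, and the share of LAMB1 would then be too low. With the exon lengths LAMB1 held 39.5% of the β chains on day 9, 33.3% on day 11 and 31.6% on day 20, below LAMB2 on every day.

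**Figure D3:**
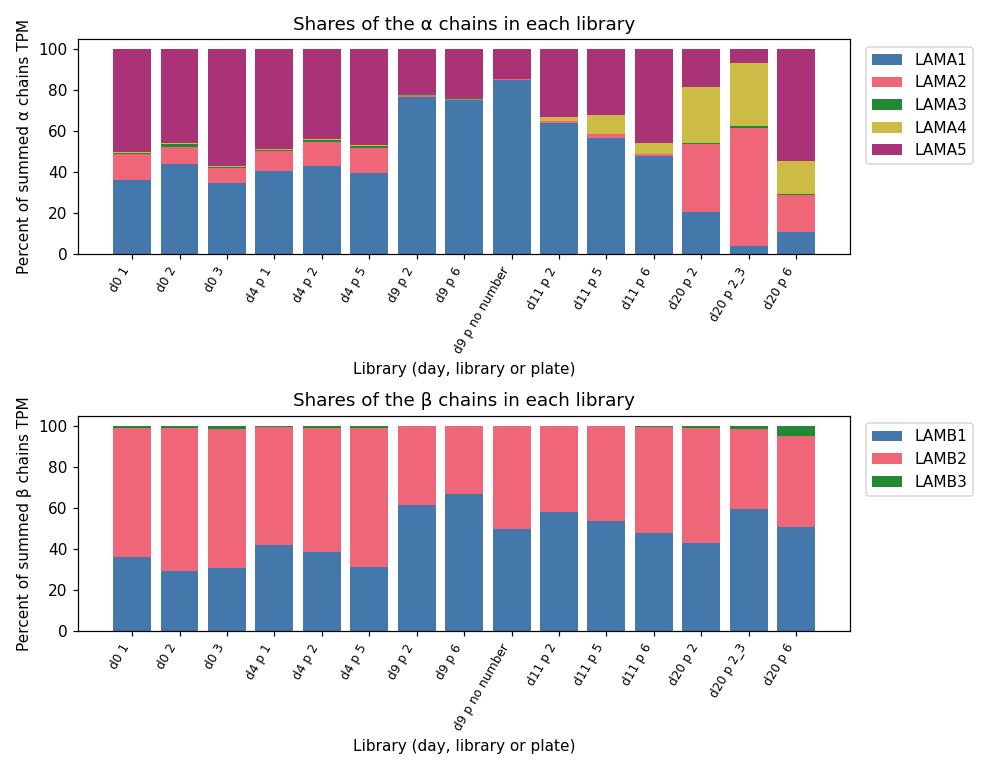
Share of each chain in the summed TPM (percent, y axis) of the α chains (upper panel) and β chains (lower panel) in each of the 15 libraries (x axis; d is the day and p the plate). LAMA5 is the largest α share on days 0 and 4, LAMA1 on days 9 and 11, and the 3 libraries of day 20 differ.

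The α chains of day 20 were set beside the cell type markers of the same libraries. In plates 2, 2_3 and 6 the 5 cardiomyocyte genes, all above 1 TPM in each, summed to 15243, 14402 and 3583 TPM, and LAMA2 (222, 369 and 68.9 TPM) and LAMA4 (184, 198 and 62.5 TPM) were also lowest in plate 6. The 5 genes of yolk sac or hepatic endoderm (AFP, APOA1, TTR, FGB and ALB) summed to 17188, 672 and 19790 TPM, and the 5 epithelial genes to 3236, 803 and 3887 TPM. LAMA5 (122, 44.3 and 210 TPM) was likewise lowest in plate 2_3 and highest in plate 6. The 6 mesenchymal genes summed to 3173, 1198 and 24359 TPM. LAMB3 (9.93, 7.45 and 44.1 TPM) was lowest in plate 2_3 and highest in plate 6, as were the mesenchymal, endoderm and epithelial sums alike. The 4 endothelial genes summed to 27.1, 33.2 and 148 TPM, of which TEK, also present on day 0, made up 15.9, 16.8 and 141 TPM, and without it to 11.2, 16.4 and 6.60 TPM. Levels of other days did not all follow these sums. In day 11 plate 5 the cardiomyocyte genes summed to 14868 TPM, with LAMA2 at 8.61 and LAMA4 at 39.9 TPM. On day 9 the epithelial genes summed to 4533 to 6381 TPM, and LAMA5 had 84.1 to 104 TPM. The part of these cell types in the chain levels was not tested. In bulk RNA, more cells of a type and more RNA per cell cannot be told apart.

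LAMB4 and LAMC3, chain genes outside the 9, were also looked at. LAMB4 had 0 to 3 reads in each library before day 20 and was not tested, and its 118 reads in plate 2_3 compare with 77.2 reads at the rate of silent genes. LAMC3, which encodes the γ3 chain, had a mean of 24.3 TPM ± 8.05 (SD, n = 3) on day 4 and 13.5 ± 2.76 on day 9, and fell in this step (log2 fold change −0.81, SE 0.28, adjusted p = 0.0466 by edgeR), although its libraries overlapped. It was also lower on day 20 than on day 0 (−1.49, SE 0.33, adjusted p = 0.0128).

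The laminin sheet is tied to type IV collagen by nidogens and perlecan. Of 12 such basement membrane genes, 0 passed from day 0 to day 4, 6 rose and 2 fell from day 4 to day 9, 0 passed from day 9 to day 11 or from day 11 to day 20, and 6 rose and 0 fell from day 0 to day 20. Over all genes, 24.3% were called higher and 24.7% lower from day 4 to day 9, and 16.1% and 11.3% from day 0 to day 20. The shares were 0% and 0% from day 0 to day 4, 1.39% and 1.00% from day 9 to day 11, and 1.12% and 0.435% from day 11 to day 20. The median log2 fold change of the list from day 4 to day 9 was 0.57. NID2, a nidogen that binds the γ1 chain, rose from 19.2 to 24.4 TPM on day 4 to 348 to 627 TPM on day 9 (log2 fold change 4.60, SE 0.24, adjusted p = 4.82e-06 by edgeR). NID1, the other nidogen, had a log2 fold change of 0.23 (SE 0.38) in that step. COL4A1 (1.54, SE 0.25, adjusted p = 0.00143) and COL4A2 (0.81, SE 0.25, adjusted p = 0.0291), the common type IV collagen chains, rose with LAMB1 and LAMC1. COL15A1 fell (−0.92, SE 0.31, adjusted p = 0.0366) near the floor, from a mean of 0.707 to 0.369 TPM, with 11 to 19 reads on day 9. From day 0 to day 20 it rose (4.99, SE 0.87, adjusted p = 0.00491), from a mean of 0.577 to 20.3 TPM.

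Of 7 laminin receptor genes, 0 rose and 5 fell from day 4 to day 9, where 24.3% of all genes were called higher and 24.7% lower, and the median log2 fold change was −0.85. ITGA6, the integrin α chain with which stem cells bind LN-521, fell from 295 to 401 TPM on day 4 to 21.4 to 43.2 TPM on day 9 (log2 fold change −3.58, SE 0.31, adjusted p = 7.92e-05 by edgeR). ITGB1, its β partner, had a mean of 375 TPM ± 130 (SD, n = 3) on day 9 and a log2 fold change of −0.06 (SE 0.28). From day 9 to day 11, 0 of the 7 passed, where 1.39% of all genes were called higher and 1.00% lower. From day 11 to day 20, 0 of the 7 passed, where 1.12% were called higher and 0.435% lower.

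**Figure D4:**
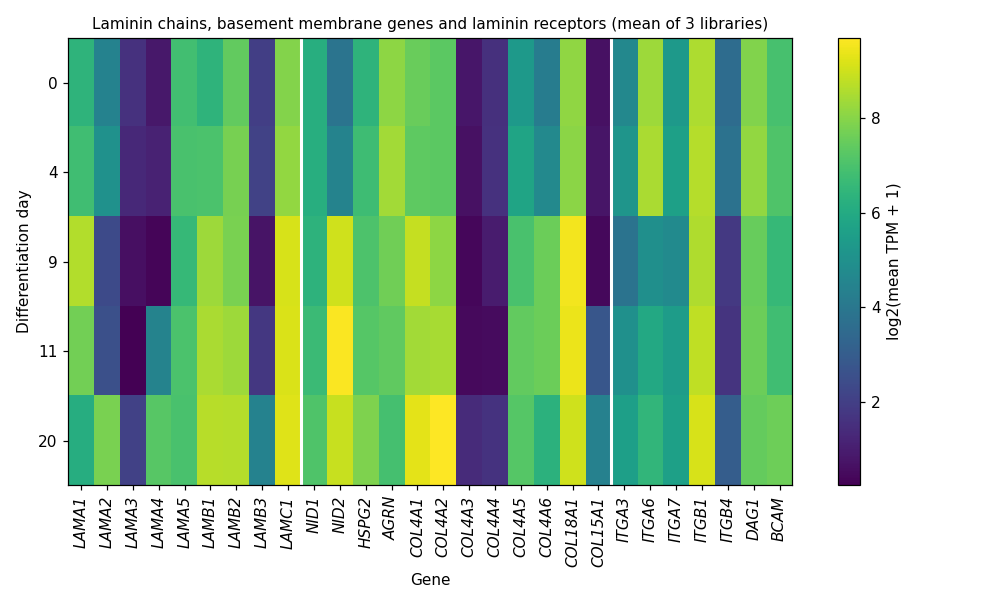
Mean level over the 3 libraries of a day, as log2(TPM + 1) (colour), for the laminin chains, 12 basement membrane genes and 7 laminin receptor genes (x axis, separated by white lines) on each differentiation day (y axis). NID2 brightens and ITGA6 darkens between days 4 and 9, the step at which LAMA1, LAMB1 and LAMC1 rise.

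Across the 15 libraries, which share their days and depth, LAMB1 and LAMC1 had the highest correlation of log2 CPM among the 36 pairs of chains (r = 0.84), followed by LAMA2 and LAMA3 (r = 0.82). LAMA1 ran opposite to LAMA3 (r = −0.77), LAMA2 (r = −0.77) and LAMB3 (r = −0.75). LAMA5 had an r between −0.43 and 0.39 with every other chain. Among 10773 protein-coding genes with a mean of at least 10 CPM, those most like LAMA4 were RCAN2 (r = 0.98), the sodium-calcium exchanger gene SLC8A1 (r = 0.97) and the small heat shock protein gene HSPB7 (r = 0.97). PHACTR1 (r = 0.96), OSBP2 (r = 0.95) and SLC4A3 (r = 0.95) were most like LAMA2. RASL12 (r = 0.96) and the glucose transporter gene SLC2A3 (r = 0.95) were most like LAMA1, and GALT (r = 0.97) was most like LAMB1. STIM1 (r = 0.95), the cadherin gene CDH11 (r = 0.94) and the matrix protease gene MMP2 (r = 0.94) were most like LAMC1. For LAMA5 and LAMB2, the chains with no differing neighbours, the highest values were 0.92 (SYNGR1) and 0.90 (SLC12A4).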

How the data were processed

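Bulk RNA sequencing of H1 cells on 5 differentiation days was analysed from the deposited tables. The authors aligned 150-base paired-end reads with STAR 2.5.2b to hg38 (Ensembl release 79), counted them per gene with featureCounts 1.5.1 and deposited the raw counts. The authors also deposited TPM. The gene length behind it is given nowhere and was read back here from both tables. The deposited sample table gives the RNA integrity number as a score and the share of uniquely mapping reads as a fraction. Samples were grouped by the day in their labels.

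For each pair of days the counts were tested by edgeR 4.0.16, run in R 4.3.3 (TMM, filterByExpr at a minimum count of 10 and total of 15, robust quasi-likelihood test, 6 libraries per fit, no covariates). P-values are two-sided and were adjusted over all genes by the Benjamini-Hochberg procedure, and the threshold was 0.05. The standard error is the log2 fold change divided by the square root of F. Nothing states that the cultures were independent beyond the label of biological replicates, so p-values measure the spread between these samples. Library totals of 11990302 to 33469703 counts set the precision. Shares and correlations are descriptions with no test. The chains and gene lists were chosen with earlier results of these data known. The rule for named genes took all 9 chains, the other 3 laminin genes, at most 8 genes of the lists and, per chain, up to 3 genes of highest correlation, and 1 of these genes is not reported here. Alternatives were DESeq2 1.42.0, RLE normalization, no filter, all 15 libraries in 1 fit, plate or lane as a block, each library left out, TPM without the short gene, and exon union lengths. The tests were also tried on simulated data. Positions are from GENCODE v44 and promoters from RefSeq. The single-cell data were not analysed here.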

Additional observations from a re-analysis of the deposited data

How the results depend on the processing

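The count of chains past the threshold was 1 from day 9 to day 11 and became 3 with DESeq2 (LAMA1, LAMA3 and LAMA4) and 5 with the plate as a replicate block (also LAMB2 and LAMB3). From day 11 to day 20 it was 2, and became 4 with DESeq2, 4 with all 15 libraries in 1 fit, 1 with the sequencing lane as a block and 0 with the plate as a replicate block. Over all genes, DESeq2 called 1593 and 2045 genes in these steps, where edgeR called 495 and 332, and the plate block 1971 and 3. Without the filter 1016 genes passed in the former step, and with the lane as a block 137 in the latter. All 15 libraries in 1 fit called 3132 genes in the latter, 6209 from day 4 to day 9 (10406 with 6 libraries) and 10785 from day 0 to day 20 (6027 with 6 libraries). Leaving out 1 library at a time gave 0 to 0 chains from day 0 to day 4, 6 to 8 from day 4 to day 9, 0 to 1 from day 9 to day 11 (0 without day 9 plate 2 or the library without a plate number), 0 to 2 from day 11 to day 20 (0 without any 1 library of day 11) and 2 to 6 from day 0 to day 20 (2 without day 0 library 3). Over all genes, 0 passed from day 9 to day 11 without day 9 plate 2, and 37 without the library without a plate number. From day 11 to day 20, 0, 1 and 0 genes passed without plates 2, 5 and 6 of day 11. From day 0 to day 20, 3128 genes passed without day 0 library 3. The neighbouring days that differed numbered 6 to 9. The cause of these shifts was not tested.

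Without their suffixes, plate numbers 2 and 6 were shared by days 9 and 11 and by days 11 and 20. The labels of plate 6 carry a suffix on days 9 and 20, left out in this text, and none on day 11. They do not state that it was the same plate. The block dropped suffixes, so that plates 2 and 2_3 of day 20 shared the number 2. Same-numbered libraries had correlations of deviations from −0.14 to 0.10 for plate 2, and of 0.30 and 0.35 for plate 6. Plate 6 also had the highest mesenchymal sum on days 9, 11 and 20 (2319, 7310 and 24359 TPM). The main fits took no pairing by plate, although plate 6 may pair its libraries, and the plate block is given above as an alternative.

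Signs turned in changes that had passed no threshold. With the plate as a replicate block from day 9 to day 11, the log2 fold changes were −0.35 for LAMA2, −0.015 for LAMB1 and 0.31 for LAMC1. With the lane as a block LAMB2 had −0.015 from day 4 to day 9. Without the filter, LAMB1 had −0.011 from day 11 to day 20 and LAMA3 −0.071 from day 0 to day 20, and with RLE normalization LAMA5 had 0.0038 over the latter span. Of 225 fits of single chains that kept every library, 198 kept both direction and side of the threshold. With 1 library left out, the log2 fold change from day 0 to day 4 ranged from −0.16 to 0.36 for LAMA5 and from −0.17 to 0.36 for LAMB3, and that of LAMB2 from day 4 to day 9 from −0.34 to 0.30. From day 9 to day 11 the ranges were −0.54 to 0.38 for LAMA2, −0.080 to 0.27 for LAMB1 and −0.27 to 0.22 for LAMC1. From day 11 to day 20 they were −0.76 to 0.38 for LAMA5, −0.094 to 0.34 for LAMB1, −0.20 to 0.65 for LAMB2 and −0.42 to 0.26 for LAMC1. From day 0 to day 20 they were −1.58 to 0.015 for LAMA1, −0.28 to 0.51 for LAMA3 and −0.71 to 0.44 for LAMA5. Depth limits LAMA3, LAMA4 and LAMB3 most, since their lowest counts were 12, 6 and 8 reads. With TPM taken without the short gene, 44 day means of the chains shifted by less than 1 SD and 1 by at least 1 SD.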
